A study of Mus musculus with 18 samples.

Results

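The genes described here encode the proteins of the sarcomere and their smooth muscle and non-muscle relatives, measured in articular cartilage of the mouse medial tibial plateau (MTP) after destabilisation of the medial meniscus (DMM). Members were all probes whose annotated symbol belonged to the myosin heavy and light chains, troponins, tropomyosins, alpha-actinins, myosin-binding proteins C, myomesins and myozenins, or was *Ttn*, *Neb*, *Tcap*, *Acta1*, *Actc1* or a *Xirp* gene. The rule used names only and no measured value. It found 78 probes of 43 genes, out of 22999 probes and 11499 annotated genes on the table. The prefix also took in *Tnni3k*, a protein kinase named after cardiac troponin I and not itself a troponin.

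Male C57Bl6/J mice had DMM surgery on the right knee, in which the ligament holding the medial meniscus is cut, while the left knee was left unoperated and gave the contralateral group. No sham-operated knee was included, so surgery and joint instability cannot be told apart. MTP cartilage was micro-dissected at 2, 4 and 8 weeks, when the mice were 12, 14 and 18 weeks old, after the muscle around the joint had been taken away. Every array carried a pool of 8 mice, each of the 6 groups had 3 such arrays (18 in all), and the values of a group are given in the order of replicates 1, 2 and 3.

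A striated muscle fibre contracts when myosin heavy chains of the thick filament pull on actin of the thin filament, and troponin and tropomyosin on the thin filament make that pull depend on calcium. Alpha-actinin anchors thin filaments at the Z-disc, myomesin links thick filaments at the M-band, and titin spans from one to the other. Most of these proteins come in paralogs used by fast fibres, slow fibres, heart or developing muscle, and other paralogs form the contractile fibres of smooth muscle and of cells that are not muscle at all. Limb muscles of the mouse are rich in fast fibres, and articular cartilage contains no muscle. By these roles, fixed as lists, the measured members were 11 fast skeletal genes, 4 slow skeletal, 5 cardiac or developmental (with *Tnni3k*), 8 shared by striated muscles, 3 tropomyosins with muscle and non-muscle isoforms, and 12 of smooth muscle or non-muscle cells. Of 59 genes listed, 16 were not on the table analysed here, among them *Myh7*, *Myl2*, *Tnnc1* and *Tnni1* of slow fibres.

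The values are log2 intensities after quantile normalisation, so a difference of 1 is a doubling, and levels can be compared between arrays for a probe but not between probes. All arrays ran from 4.62 to 14.67 with medians between 6.55 and 6.56, and arrays of a group correlated with each other at r = 0.923 to 0.982. The mean of 17 chondrocyte markers lay between 9.51 and 10.07 over the 18 arrays, well above the array medians. Each difference was tested with limma over all 22999 probes with Benjamini-Hochberg adjustment, a gene was called up-regulated or down-regulated when its brightest probe had an adjusted p below 0.05, and a group test of 3 arrays against 3 by exact permutation could not go below p = 0.1. Array 2 of the contralateral group at 8 weeks stood apart for these genes, with a mean of the fast genes of 9.43 against 7.29 for the lowest array of its group, and results resting on it are given with and without it.

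At 2 weeks after DMM, the fast skeletal genes of the sarcomere were lower in DMM-operated than in contralateral MTP cartilage. Of 43 genes, 16 were down-regulated, against 3.16% of all annotated genes, and 2 were up-regulated, against 4.07%. The 16 were 10 of the 11 fast genes, 5 of the 8 shared striated genes and 1 of the 4 slow genes. The median log2 fold change was -1.55 over the fast genes and -1.33 over the shared striated genes, beside -0.29 over the slow genes, -0.24 over the cardiac or developmental genes and 0.014 over all genes. The 12 smooth muscle and non-muscle genes had a median of 0.30, and both up-regulated members, *Tpm4* and *Actn1*, were among them. Counted as probes, 28 of the 78 passed at 2 weeks, while 3.3% of all probes fell and 3.33% rose.

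At 4 weeks far fewer genes of the array differed between DMM-operated and contralateral cartilage, yet the number of sarcomere genes called lower was the same. Of the 43 genes, 16 were down-regulated and 0 were up-regulated, against 0.348% and 0.452% of all annotated genes. Fast genes again made up 10 of the 16, with a median of -1.94, and 5 were shared striated genes, whose median was -1.30. The remaining gene was *Actc1*, cardiac actin, and none of the 4 slow genes passed the test, with a median of 0.17. Counted as probes, 29 of the 78 passed, while 0.296% of all probes fell and 0.343% rose. When all 18 arrays shared a variance estimate, 3 probes passed at 4 weeks and 13 at 2 weeks, and the 3 probes at 4 weeks were of *Actc1* and *Actn3*, with *Actc1* alone passing at its brightest probe. At 2 weeks 16 probes passed without DMM array 3. Shares of all probes called are not given for these refits. In bulk tissue, fewer cells of a type and less RNA per cell cannot be told apart.

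**Figure D1:**
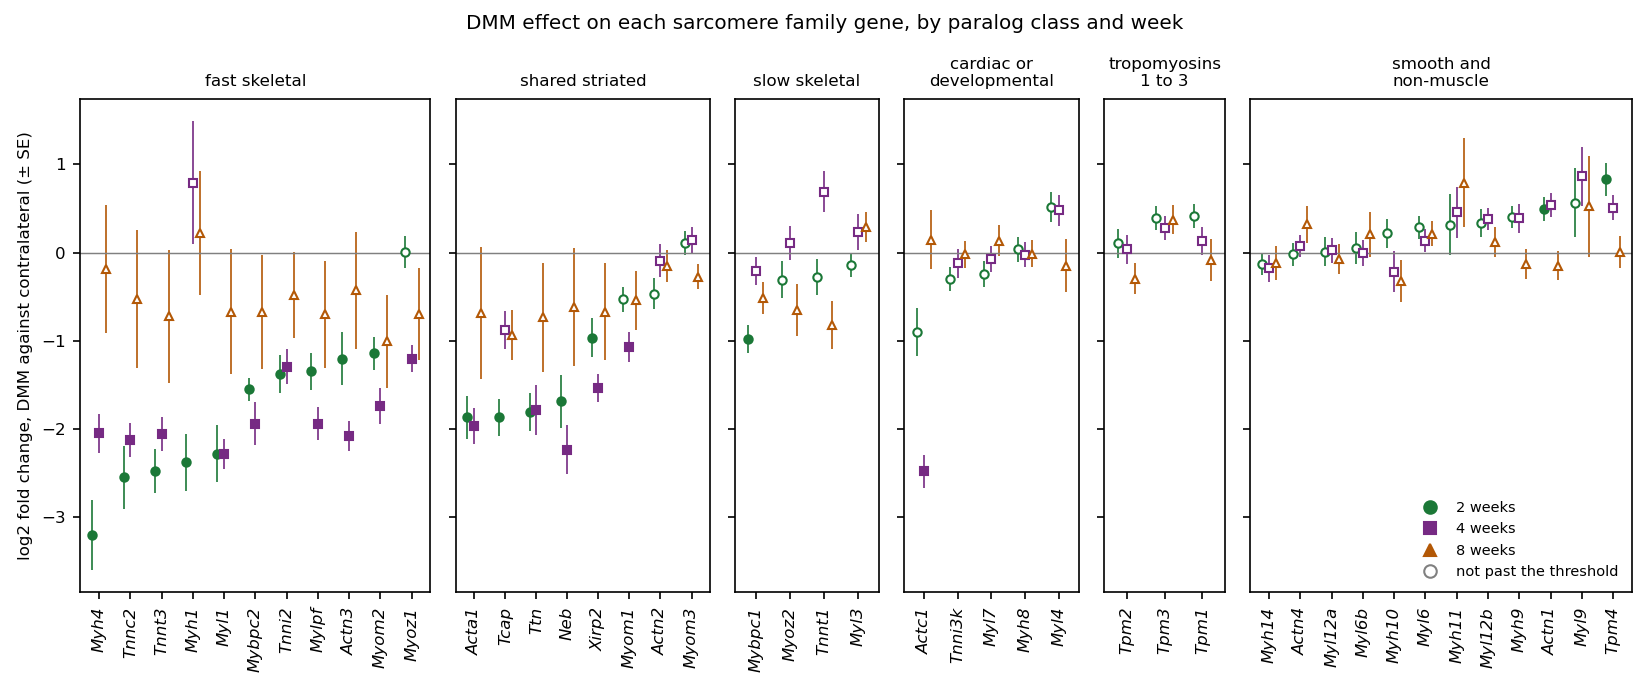
Log2 fold change of DMM-operated against contralateral MTP cartilage with its SE (n = 3 arrays a group) for the brightest probe of each sarcomere gene, grouped by class and shown for each week; filled points passed an adjusted p of 0.05 by limma. Most fast and shared striated genes lie below 0 at 2 and 4 weeks, *Mybpc1* is the slow gene filled at 2 weeks, and no point is filled at 8 weeks.

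Among the myosin heavy chains, the motor proteins of the thick filament, *Myh4* of type IIb fibres, the fastest fibre type of mouse limb muscle, showed the widest difference at 2 weeks. Its log2 intensity was 9.70, 10.54 and 10.01 in contralateral cartilage and 6.18, 8.04 and 6.45 in DMM-operated cartilage. The groups did not overlap, and the fold change was -3.20 on the log2 scale (SE 0.40, adjusted p = 0.00215), a 9.18-fold lower intensity. At 4 weeks *Myh4* was at 11.45, 11.01 and 11.34 against 8.68, 9.35 and 9.62, and the groups were again apart (-2.05, SE 0.22, adjusted p = 0.00166). At 8 weeks the groups overlapped, with 9.26, 11.66 and 8.34 in contralateral and 10.19, 9.46 and 9.05 in DMM-operated cartilage.

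*Myh1*, the heavy chain of type IIx fibres, was called lower at 2 weeks but not at 4 weeks. Its values at 2 weeks were 8.92, 8.47 and 7.48 in contralateral and 5.85, 6.42 and 5.46 in DMM-operated cartilage, a change of -2.38 (SE 0.33, adjusted p = 0.00333). At 4 weeks they were 9.85, 6.53 and 7.17 against 9.60, 7.63 and 8.69, which overlapped, and the difference of 0.79 had a 95% interval from -0.73 to 2.32 (adjusted p = 0.689). Of the 11 fast genes it alone was not called at 4 weeks. A second, dimmer *Myh1* probe was called at neither week (-0.45 at 2 weeks and -0.18 at 4 weeks). *Myh8*, the perinatal heavy chain, was below the array median on all 18 arrays and was not called at any week. Genes of this cluster are close copies of each other, the probe sequences were not examined here, and signal from one copy on the probe of another was not tested.

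*Myh1*, *Myh4* and *Myh8* lie next to each other on chromosome 11, in that order, and their promoters are printed because these neighbours differed in their calls while holding the same MEF2 match. The stretches run from 250 bases before to 50 after the start of transcription, on the plus strand, from RefSeq on GRCm38.p6. *Myh1* is at chr11:67199852-67200151, *Myh4* at chr11:67237562-67237861 and *Myh8* at chr11:67276874-67277173. Capitals mark matches to the motifs of MEF2, a muscle transcription factor, and to the CArG box, which the serum response factor binds.
Myh1: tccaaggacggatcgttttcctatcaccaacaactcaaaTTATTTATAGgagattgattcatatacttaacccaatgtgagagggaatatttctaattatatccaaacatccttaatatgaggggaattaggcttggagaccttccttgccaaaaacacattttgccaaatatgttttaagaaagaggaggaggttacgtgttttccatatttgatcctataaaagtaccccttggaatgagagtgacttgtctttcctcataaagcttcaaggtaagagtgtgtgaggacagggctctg
Myh4: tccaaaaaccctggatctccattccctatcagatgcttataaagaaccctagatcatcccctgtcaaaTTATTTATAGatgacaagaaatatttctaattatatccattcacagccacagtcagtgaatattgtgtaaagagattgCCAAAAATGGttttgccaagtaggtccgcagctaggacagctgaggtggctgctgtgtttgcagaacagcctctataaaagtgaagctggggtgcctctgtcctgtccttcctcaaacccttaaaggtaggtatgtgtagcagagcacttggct
Myh8: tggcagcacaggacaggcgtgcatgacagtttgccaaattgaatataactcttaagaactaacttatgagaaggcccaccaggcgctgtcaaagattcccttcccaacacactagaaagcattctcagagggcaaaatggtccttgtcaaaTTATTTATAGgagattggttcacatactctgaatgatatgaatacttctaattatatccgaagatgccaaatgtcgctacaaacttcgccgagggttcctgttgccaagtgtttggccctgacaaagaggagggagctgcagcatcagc
The MEF2 match TTATTTATAG began 211 bases before the start of *Myh1*, 182 before that of *Myh4* and 99 before that of *Myh8*, and a match to TATAAA on the other strand lies inside it. *Myh4* also held the CArG match CCAAAAATGG, beginning 104 bases before its start.

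Promoters were found for 35 of the 43 genes, and 8 of the 35 (22.9%) held a MEF2 match on either strand, against 3.7% of the 27025 genes with promoters of the same length. A CArG match was in 8 (22.9%) against 1.81% of all, TATAAA in 8 (22.9%) against 15.7%, and CANNTG, the E-box core of the myogenic factors, in 33 (94.3%) against 75.0%. None of the 11 promoters of smooth muscle and non-muscle members held a MEF2 match (0 of 11), and 2 of the 11 held a CArG match. These matches describe letters in a window and are not measured binding sites.

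The light chains, which clasp the neck of the heavy chain, included both fast forms among the genes that fell. *Myl1*, the fast essential light chain, was at 8.17, 8.98 and 8.42 in contralateral and 5.60, 7.07 and 6.06 in DMM-operated cartilage at 2 weeks, and at 10.15, 9.72 and 10.30 against 7.66, 7.94 and 7.72 at 4 weeks. The groups were apart at both weeks, and the change was -2.28 at each, with adjusted p = 0.00357 at 2 weeks and 0.000155 at 4 weeks. *Mylpf*, the fast regulatory light chain, fell by 1.35 on the log2 scale at 2 weeks and by 1.94 at 4 weeks (adjusted p = 0.00527 and 0.000894). *Myl3*, the essential light chain of slow fibres and ventricle, was at 5.95, 5.69 and 5.66 against 5.72, 5.63 and 5.53 at 2 weeks and at 5.99, 5.57 and 5.86 against 5.73, 5.85 and 6.53 at 4 weeks. It lay below the array median on all 18 arrays, and at so dim a probe a change may not be visible.

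Troponin, the calcium switch of the thin filament, was represented by its fast calcium-binding, inhibitory and tropomyosin-binding subunits and by a slow tropomyosin-binding subunit. *Tnnt3*, the fast tropomyosin-binding subunit, was at 8.53, 9.27 and 8.77 in contralateral and 6.13, 6.97 and 6.06 in DMM-operated cartilage at 2 weeks, a change of -2.47 (SE 0.25, adjusted p = 0.000899). *Tnnc2*, the fast calcium-binding subunit, went from 8.30, 9.08 and 8.49 to 5.42, 7.06 and 5.75 (-2.55, SE 0.35, adjusted p = 0.00335). Both stayed apart at 4 weeks. *Tnnt3* was then at 10.66, 9.99 and 10.36 against 8.55, 7.97 and 8.31 (-2.06, adjusted p = 0.000771), and *Tnnc2* at 10.48, 9.87 and 10.18 against 7.90, 7.86 and 8.40 (-2.12, adjusted p = 0.000626). *Tnni2*, the fast inhibitory subunit, fell by 1.37 at 2 weeks and 1.29 at 4 weeks on the log2 scale (adjusted p = 0.00566 and 0.0156).

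The slow paralog *Tnnt1* did not pass the test at any week. At 2 weeks it was at 5.78, 5.68 and 6.31 in contralateral and 5.36, 6.0 and 5.58 in DMM-operated cartilage, and the values overlapped. At 4 weeks the DMM arrays, at 6.04, 6.81 and 6.28, all lay above the contralateral arrays, at 5.21, 5.93 and 5.92, and the difference of 0.69 did not pass the test (95% interval 0.19 to 1.2, adjusted p = 0.213). *Tnnt1* was below the array median on 16 of 18 arrays.

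Myosin-binding protein C lies along the thick filament and steadies the myosin heads. The fast form *Mybpc2* had the smallest adjusted p of the sarcomere genes at 2 weeks, with 7.21, 7.32 and 7.05 against 5.60, 5.74 and 5.58 (-1.55, SE 0.13, adjusted p = 0.000336), and was at 8.78, 7.74 and 8.79 against 6.31, 6.66 and 6.52 at 4 weeks (-1.94, adjusted p = 0.00433). The slow form *Mybpc1* was the slow gene called at 2 weeks, at 7.26, 7.18 and 6.73 against 6.04, 6.06 and 6.13 (-0.98, SE 0.16, adjusted p = 0.00589). At 4 weeks its values of 7.01, 6.93 and 6.55 against 6.82, 6.49 and 6.55 were within the spread of the arrays, with a difference of -0.21 (95% interval -0.56 to 0.14).

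Of the sarcomeric actins, which polymerise into the thin filament, the skeletal form *Acta1* was lower at both weeks. It was at 6.98, 8.12 and 7.51 against 5.57, 5.88 and 5.56 at 2 weeks (-1.87, SE 0.24, adjusted p = 0.00254) and at 9.12, 8.38 and 9.26 against 6.83, 6.99 and 7.05 at 4 weeks (-1.97, adjusted p = 0.00138). *Actc1*, the actin of heart and developing muscle, showed the largest fall of all members at 4 weeks, from 8.53, 7.94 and 8.31 to 5.46, 6.06 and 5.80. The difference was -2.48 (SE 0.19, adjusted p = 0.000155), a 5.58-fold lower intensity. At 2 weeks the brightest *Actc1* probe was at 6.01, 7.07 and 6.91 against 5.87, 6.11 and 5.30 and did not pass (-0.90, adjusted p = 0.0766), while its other probe did (-0.85, adjusted p = 0.0421). On 12 of 18 arrays *Actc1* was below the array median, the 3 contralateral arrays at 4 weeks standing above it.

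Each of these actin promoters held a CArG match and no MEF2 match, and they are shown for comparison with the heavy chains. *Acta1* lies at chr8:123894726-123895025 and *Actc1* at chr2:114052826-114053125 on GRCm38.p6, both read on the minus strand.
Acta1: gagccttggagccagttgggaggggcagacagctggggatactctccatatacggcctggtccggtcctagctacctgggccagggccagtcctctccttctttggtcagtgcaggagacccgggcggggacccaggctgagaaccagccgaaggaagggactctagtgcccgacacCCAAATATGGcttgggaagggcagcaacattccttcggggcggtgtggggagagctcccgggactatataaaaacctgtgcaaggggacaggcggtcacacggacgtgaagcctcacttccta
Actc1: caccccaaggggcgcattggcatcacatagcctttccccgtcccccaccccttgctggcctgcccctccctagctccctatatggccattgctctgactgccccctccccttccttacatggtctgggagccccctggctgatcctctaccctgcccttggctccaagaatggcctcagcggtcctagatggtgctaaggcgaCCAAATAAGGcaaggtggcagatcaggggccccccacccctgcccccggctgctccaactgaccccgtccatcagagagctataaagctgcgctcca
The match was CCAAATATGG, beginning 73 bases before the start of *Acta1*, and CCAAATAAGG, beginning 47 bases before that of *Actc1*.

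The long and anchoring proteins of striated muscle were lower too. *Ttn*, titin, the molecular spring of the sarcomere, was at 7.57, 8.14 and 7.40 against 5.55, 5.89 and 6.24 at 2 weeks (-1.81, adjusted p = 0.00172) and fell by 1.79 on the log2 scale at 4 weeks (adjusted p = 0.0167). *Neb*, nebulin, which runs along the thin filament, went from 9.54, 8.92 and 9.13 to 7.49, 6.21 and 7.17 at 4 weeks (-2.24, SE 0.28, adjusted p = 0.00402) and fell by 1.69 at 2 weeks (adjusted p = 0.00952). *Tcap*, the titin cap of the Z-disc, was called at 2 weeks, at 9.88, 10.51 and 10.20 against 8.64, 8.45 and 7.91 (-1.87, adjusted p = 0.00132). At 4 weeks its DMM arrays still lay below all contralateral arrays, but the difference of -0.88 missed the threshold (adjusted p = 0.0944). *Xirp2*, an actin-binding protein of muscle attachment sites, was called at both weeks (-0.96 and -1.53), as was the M-band protein *Myom2* (-1.14 and -1.74), while its relative *Myom1* was called at 4 weeks (-1.07, adjusted p = 0.0167) and not at 2 weeks (-0.53, adjusted p = 0.0522).

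Alpha-actinin and myozenin of the Z-disc each gave a fast and a slower or shared form. *Actn3*, the alpha-actinin of fast fibres, was at 8.59, 8.10 and 8.58 against 6.14, 6.56 and 6.32 at 4 weeks (-2.08, SE 0.17, adjusted p = 0.000296), and fell by 1.2 on the log2 scale at 2 weeks (adjusted p = 0.0381). *Actn2*, which all striated fibres use, was at 6.53, 5.89 and 6.22 against 6.36, 5.85 and 6.15 at 4 weeks and overlapped at 2 weeks too, at 6.35, 6.08 and 5.77 against 5.65, 5.37 and 5.77. *Myoz1*, the fast myozenin, was the fast gene not called at 2 weeks (0.01), with all its values between 4.77 and 5.49. At 4 weeks it was at 6.10, 5.97 and 6.43 against 4.93, 5.04 and 4.93 (-1.20, adjusted p = 0.00402). The slow myozenin *Myoz2* did not pass at either week, at 5.63, 6.24 and 6.57 against 5.95, 5.65 and 5.91 and then at 5.86, 5.91 and 5.34 against 6.16, 5.68 and 5.60.

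**Figure D2:**
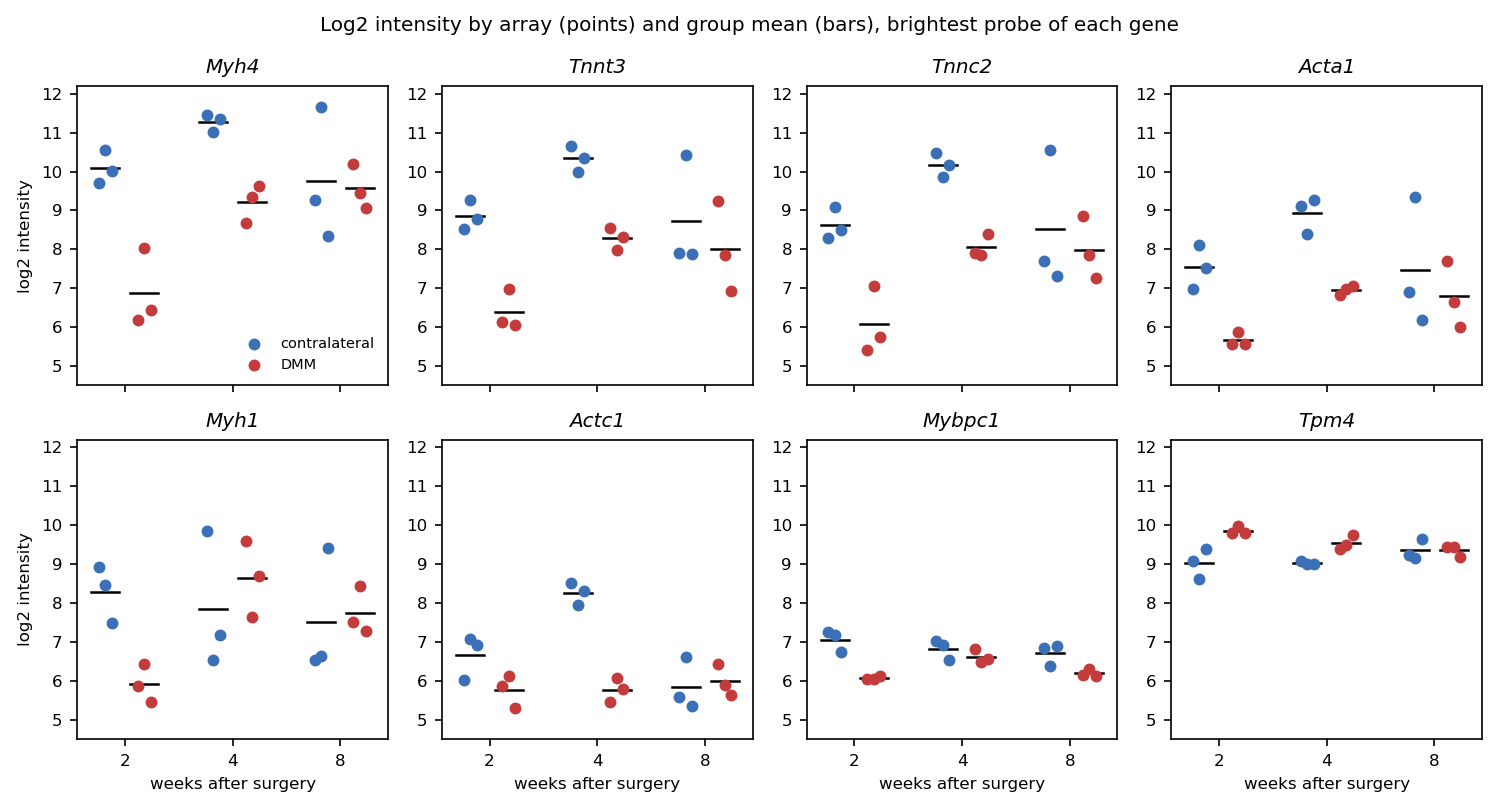
Log2 intensity of 8 sarcomere genes on each of the 18 arrays (points), by week and knee, with bars at the mean of the 3 arrays of a group. *Myh4*, *Tnnt3*, *Tnnc2* and *Acta1* are lower in every DMM array than in every contralateral array at 2 and 4 weeks, and *Actc1* separates at 4 weeks. *Tpm4* lies higher in the DMM arrays at 2 and 4 weeks. Contralateral array 2 at 8 weeks stands high for *Myh4*, *Tnnt3*, *Tnnc2* and *Acta1*, while for *Myh1* it stands low.

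The smooth muscle and non-muscle paralogs, which build the contractile fibres of other cells, were not called lower in DMM-operated cartilage at any week. *Tpm4*, a tropomyosin of non-muscle actin filaments, was at 9.08, 8.62 and 9.39 in contralateral and 9.80, 9.98 and 9.80 in DMM-operated cartilage at 2 weeks (0.83, SE 0.18, adjusted p = 0.0236). At 4 weeks it was at 9.09, 9.01 and 9.01 against 9.40, 9.50 and 9.74, also apart, but 0.51 did not pass (adjusted p = 0.122). *Actn1*, an alpha-actinin of focal adhesions, was at 6.42, 6.26 and 6.49 against 6.85, 6.99 and 6.82 at 2 weeks (0.50, adjusted p = 0.0483), a call kept in 3 of 13 alternatives and lost when any of the 6 arrays was left out, and differed by 0.54 at 4 weeks (adjusted p = 0.0949). *Myh9*, the main non-muscle myosin heavy chain, was at 10.81, 10.70 and 10.81 against 11.11, 11.20 and 11.21 at 2 weeks, apart but not past the threshold (0.40, adjusted p = 0.0834). *Myl6*, its essential light chain, was at 11.16, 11.23 and 11.44 against 11.52, 11.56 and 11.61 (0.29, adjusted p = 0.241). *Actn4*, the other non-muscle alpha-actinin, had a difference of -0.02 (95% interval -0.30 to 0.27). Smooth muscle *Myh11* and *Myl9* were not called, with wide 95% intervals of -0.45 to 1.07 and -0.28 to 1.42 at 2 weeks. A difference between knees may have been missed for them.

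The promoter of *Myl9*, the regulatory light chain of smooth muscle, is printed as an example of a light chain with a CArG match. *Myl3*, *Myl6* and *Myl7* also held such a match, and none of these light chains was called at any week. The promoters of *Myl1* and *Mylpf*, which were called, held no such match. The *Myl9* stretch lies at chr2:156775214-156775513 on GRCm38.p6, on the plus strand.
Myl9: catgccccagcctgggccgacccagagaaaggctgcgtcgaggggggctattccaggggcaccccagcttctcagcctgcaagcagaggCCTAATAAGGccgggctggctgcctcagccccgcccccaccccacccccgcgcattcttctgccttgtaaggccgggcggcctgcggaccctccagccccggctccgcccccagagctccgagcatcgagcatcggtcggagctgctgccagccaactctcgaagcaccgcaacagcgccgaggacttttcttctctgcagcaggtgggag
Its match, CCTAATAAGG, began 161 bases before the start.

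At 8 weeks 0 of the 78 probes were called (0% of all probes and genes on the table), and the smallest adjusted p was 0.449. An unadjusted p below 0.05 by limma was seen in 7 of the 78, beside 1993 of all 22999 probes. The median of the fast genes was -0.67 and that of the shared striated genes -0.64. Contralateral array 2 carried that direction. Its *Tnnt3* value was 10.44 beside 7.90 and 7.87, its *Tnnc2* value 10.55 beside 7.69 and 7.30, and its *Acta1* value 9.35 beside 6.89 and 6.19. Without it the median of the fast genes was 0.13, with 9 of 11 above 0 instead of 1 of 11, and that of the shared striated genes was 0.0060, with 4 of 8 above 0. The fast gene *Myh1* went the other way, from 0.22 with that array to -0.22 without it. The slow genes kept a median below 0, at -0.58 with it and -0.67 without it. *Tcap* was lower in all DMM arrays at 8 weeks, at 9.20, 9.65 and 9.88 against 10.09, 11.11 and 10.32 (-0.93, adjusted p = 0.453), and differed by -0.63 without that array. *Mybpc1* too was lower in all DMM arrays, at 6.15, 6.31 and 6.12 against 6.83, 6.38 and 6.90 (-0.51, adjusted p = 0.504).

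Averaged over the weeks in a fit of all 18 arrays, 17 genes were down-regulated, against 5.04% of all genes, and 4 up-regulated, against 6.07%. The 17 were 9 of 11 fast genes, 6 of 8 shared striated genes, *Mybpc1* and *Actc1*. *Myh4* (-1.81), *Tnnt3* (-1.75), *Myl1* (-1.74) and *Tnnc2* (-1.73) led them. Each of these calls was kept in 24 alternatives, with ranges of -2.05 to -1.49, -1.96 to -1.47, -1.95 to -0.86 and -1.93 to -1.39. These averages include contralateral array 2 of week 8. Without it the 8-week changes of the same genes were 0.77, 0.13, 0.15 and 0.49, instead of -0.19, -0.72, -0.67 and -0.52. The 4 up-regulated genes were *Tpm4* (0.45, adjusted p = 0.00768), *Tpm3* (0.35, adjusted p = 0.00821), *Actn1* (0.30, adjusted p = 0.0151) and *Myl12b*, a non-muscle regulatory light chain (0.28, adjusted p = 0.0433). The *Myl12b* call was kept in 7 of 24 alternatives, and its other probes, at 0.04 and -0.10, were not called. *Tpm3* and *Tpm4* also had probes not called, at -0.47 and 0.12 for *Tpm3* and 0.09 for *Tpm4*.

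Whether the difference between knees changed with time was tested directly by the interaction of surgery and week, which called 0 sarcomere probes, as it called 0% of all probes. At an unadjusted p below 0.05 there were 10 of 78 probes for 4 minus 2 weeks, 15 for 8 minus 2 weeks and 17 for 8 minus 4 weeks. Over all 22999 probes these counts were 1250, 2419 and 1742. The lowest p was that of *Actc1* for 8 minus 4 weeks, 2.63 on the log2 scale (adjusted p = 0.127). The difference between knees changed by 3.01 for *Myh4* from 2 to 8 weeks (adjusted p = 0.275) and by 3.17 for *Myh1* from 2 to 4 weeks (adjusted p = 0.896). The differences in fall between weeks did not pass the test.

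Sarcomere genes also differed between weeks within the contralateral and within the DMM-operated group. Each week had its own mice, whose age rose with the time after surgery, so age and time cannot be told apart. In contralateral cartilage, 9 genes were higher at 4 than at 2 weeks, against 0.174% of all genes, and none was lower. These were *Mylpf* (1.72), *Neb* (1.71), *Actc1* (1.59), *Tnnc2* (1.55), *Myl1* (1.53), *Tnnt3* (1.48), *Xirp2* (1.45), *Ttn* (1.40) and *Myoz1* (1.05), with adjusted p between 0.00994 and 0.047. The median over the fast genes was 1.24, over the slow genes -0.23 and over all genes 0.0055. This count rested on single arrays, being 0 probes without contralateral array 1 of week 4 and 24 without contralateral array 2 of week 2, against 14 with all. At 8 weeks 0 contralateral probes were called against 2 or against 4 weeks, and the whole table had 0% called. An unadjusted p below 0.05 was reached by 4 and 20 of the 78 probes, beside 1660 and 1689 of all 22999. *Actc1* differed most from 4 to 8 weeks, at 5.57, 6.60 and 5.35 at 8 weeks (-2.41, adjusted p = 0.297). Without contralateral array 2 of week 8, 15 probes were lower at 8 than at 4 weeks. The share of all probes called in that refit is not given here, so the count cannot be set against it.

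In DMM-operated cartilage 14 genes were higher at 4 than at 2 weeks, against 2.29% of all genes. They were 9 of 11 fast genes, 4 of 8 shared striated genes and the slow gene *Mybpc1* (0.54, adjusted p = 0.0418), and *Myh1* (2.73, adjusted p = 0.00138) and *Myh4* (2.33, adjusted p = 0.00502) moved most. Erythroid markers were higher in the same comparison in 4 of 5 genes (median 1.80, group means 7.11 at 2 and 8.81 at 4 weeks), as were 2 of 9 bone markers (median 0.30), and their part in the result was not tested. *Myh1* and *Myh4* were also higher at 8 than at 2 weeks (1.84 and 2.68, adjusted p = 0.0434 and 0.0433), against 0.252% of all genes, and no member was called between 8 and 4 weeks, where 0.0739% of all probes were. With a variance shared by all 18 arrays, 1 of the 17 probes higher at 4 weeks passed, and 11 passed without DMM array 3 of week 2. The 2 calls at 8 weeks were lost when DMM array 1 or 3 of week 2, or DMM array 1 or 2 of week 8, was left out. The *Myh1* call was kept in 3 of 9 alternatives and that of *Myh4* in 4 of 9. The contrasts between weeks use the same arrays as the contrasts between knees and are not independent of them.

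Pairing each fast gene with its slow or shared paralog on the same array gives a measure that a change common to both would leave level. Of 9 listed pairs 5 could be tested, by an exact two-sided permutation of the knees within weeks whose smallest p is 0.00025, with adjustment over the 5 pairs. The difference of *Myl1* from *Myl3* was lower in DMM-operated cartilage by 1.87 on the log2 scale (exact permutation p = 0.00225, adjusted p = 0.01125), with -2.14, -2.51 and -0.96 at 2, 4 and 8 weeks. The difference of *Tnnt3* from *Tnnt1* changed by -1.62 (exact permutation p = 0.01125, adjusted p = 0.0281), with -2.20, -2.75 and 0.10. That of *Actn3* from *Actn2* changed by -1.0 (exact permutation p = 0.02475, adjusted p = 0.04125). The *Tnnt3* call was lost without contralateral array 2, DMM array 2 or DMM array 3 of week 8, and that of *Actn3* in 13 of 18 tests that left out an array. *Mybpc2* against *Mybpc1* (-0.82, adjusted p = 0.0797) and *Myoz1* against *Myoz2* (-0.35, exact permutation p = 0.348) did not pass. Where the slow probe is dim, its change may be understated. A larger change of the fast probe then does not show a larger change of its RNA. *Myl3* lay below the array median on all 18 arrays, and *Actn2* on those of 2 and 4 weeks. The mean of the fast genes was 5.97 to 6.62 on the DMM arrays at 2 weeks, and their fall may be understated there too.

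**Figure D3:**
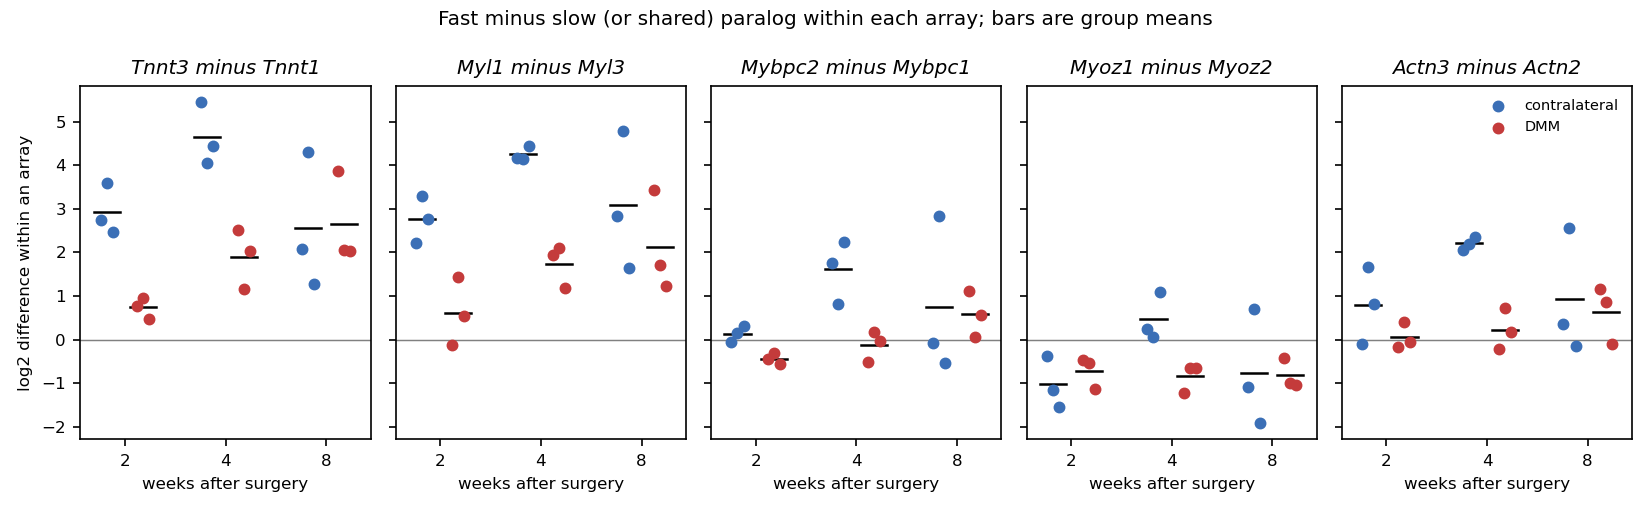
Log2 intensity of the fast gene minus that of its slow or shared paralog on the same array, for 5 pairs, by week and knee (points are arrays, bars are means of 3). For *Tnnt3* and *Tnnt1* and for *Myl1* and *Myl3* the DMM arrays lie below the contralateral arrays at 2 and 4 weeks, while *Myoz1* and *Myoz2* separate at 4 weeks.

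For 18 of the genes several probes were present, up to 9 for *Ttn*, and they did not always give the same answer. The other 8 *Ttn* probes were dimmer, and 2 of them passed at 2 weeks (-1.25 and -0.83) and 5 at 4 weeks (-0.99 to -1.61). Tropomyosin probes differed in direction. The brightest *Tpm2* probe was not called, while a dimmer one was at 6.99, 7.95 and 7.39 against 5.55, 5.91 and 5.45 at 2 weeks (-1.81, adjusted p = 0.00215). *Tpm3* had a brightest probe that was up-regulated in the averaged effect and a second probe at 9.64, 9.28 and 9.32 against 8.02, 8.59 and 8.65 at 4 weeks (-0.99, adjusted p = 0.0404). Both genes make muscle and non-muscle isoforms, and which isoform a probe reads was not examined here. Of the 3 *Tpm4* probes 2 rose at 2 weeks (0.83 and 0.86), while the third was at -0.38 and did not pass (adjusted p = 0.126). A dimmer *Actn4* probe was at 0.59 at 2 weeks (adjusted p = 0.0653) and passed in the averaged effect (0.33, adjusted p = 0.0418), where the brightest did not (0.13). Besides the brightest, the *Myl1* probes were at -0.21 and -0.18 at 2 weeks, the uncalled *Actn3* probe at -0.57, and the *Xirp2* probes at -0.54 and -0.20, none of them called. At 4 weeks an uncalled *Myl1* probe was at -0.99 (adjusted p = 0.066) and an uncalled *Xirp2* probe at -0.76 (adjusted p = 0.0832).

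**Figure D4:**
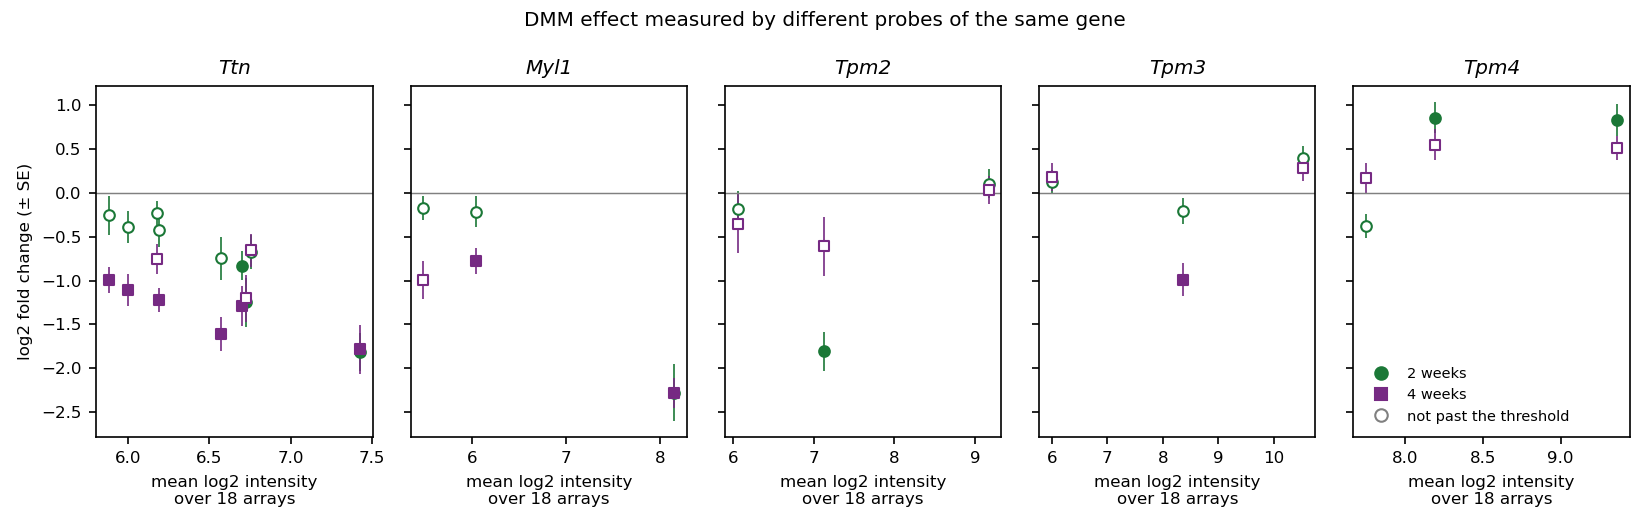
Log2 fold change of DMM-operated against contralateral cartilage at 2 and 4 weeks (n = 3 arrays a group) for every probe of *Ttn*, *Myl1*, *Tpm2*, *Tpm3* and *Tpm4*, against the mean log2 intensity of the probe over 18 arrays. Dimmer *Ttn* and *Myl1* probes lie nearer 0 than the brightest, and probes of *Tpm2* and *Tpm3* lie on both sides of 0.

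Other genes of the muscle fibre were lower in part, to be read beside the 3.16% of all genes that fell and 4.07% that rose at 2 weeks, and 0.348% and 0.452% at 4 weeks. Of 13 measured genes of calcium handling and excitation, 4 were down-regulated at 2 weeks, among them *Pvalb*, the calcium buffer parvalbumin (-2.56), and *Atp2a1*, the calcium pump of fast fibres (-1.83), and 5 at 4 weeks, among them *Casq1* (-1.25) and *Ryr1* (-1.16). Of 19 genes of muscle energy supply, 6 were lower at 2 weeks, led by the muscle phosphoglycerate mutase *Pgam2* (-2.12), and 4 at 4 weeks, led by the muscle enolase *Eno3* (-1.69). Of 15 sarcomere-associated genes outside the rule, *Cmya5* (-0.66) and *Trim63* (-0.76) fell and *Flnc* (0.76) rose at 2 weeks, and *Nrap* (-1.21) fell at 4 weeks. Of 13 listed myogenic factors and satellite cell genes only 4 were measured, with medians of -0.05 and 0.08 and 0 calls at 2 and 4 weeks. The others were not on the table, so their levels are not known here. At 8 weeks none of these lists had a call.

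Markers of other cell types moved at the same weeks, against the same shares of all genes. The mean of 14 fibroblast markers went from a range of 8.65 to 9.34 in contralateral to 9.96 to 10.10 in DMM-operated cartilage at 2 weeks, with 10 of 14 up-regulated, and 3 of 14 were up-regulated at 4 weeks. Of 10 adipocyte markers, 2 fell at 2 weeks, *Pck1* (-2.23) and *Cidec* (-1.91), and their mean ranged from 6.91 to 9.11 in contralateral and from 6.51 to 6.72 in DMM-operated cartilage. Of 17 chondrocyte markers, 3 fell and *Col9a1* rose (1.66) at 2 weeks, with means of 9.84 to 10.07 and 9.51 to 9.94, and 1 fell at 4 weeks. Macrophage markers rose in 4 of 9 at 2 weeks and 0 of 9 at 4 weeks, and 1 of 14 smooth muscle and pericyte markers rose at 2 weeks (*Mcam*, 0.85). Of 5 erythroid markers 1 fell at 2 weeks (median -0.83), of 9 bone markers *Sost* fell (-1.28), and neither list had a call at 4 weeks. Tendon and ligament markers rose in 1 of 5 at 2 weeks, with means of 8.42 to 8.53 against 8.66 to 8.81, and in 1 of 5 at 4 weeks. The median change over the 5 was only 0.021 at 2 weeks and -0.099 at 4 weeks. Endothelium markers rose in 1 of 7 at 2 weeks and 0 of 7 at 4 weeks. For comparison, the mean of the fast sarcomere genes was 7.76 to 8.34 against 5.97 to 6.62 at 2 weeks and 8.68 to 9.52 against 7.39 to 7.58 at 4 weeks. How much of a pool came from tissue other than cartilage was not measured, and the part of these markers in the sarcomere result was not tested.

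**Figure D5:**
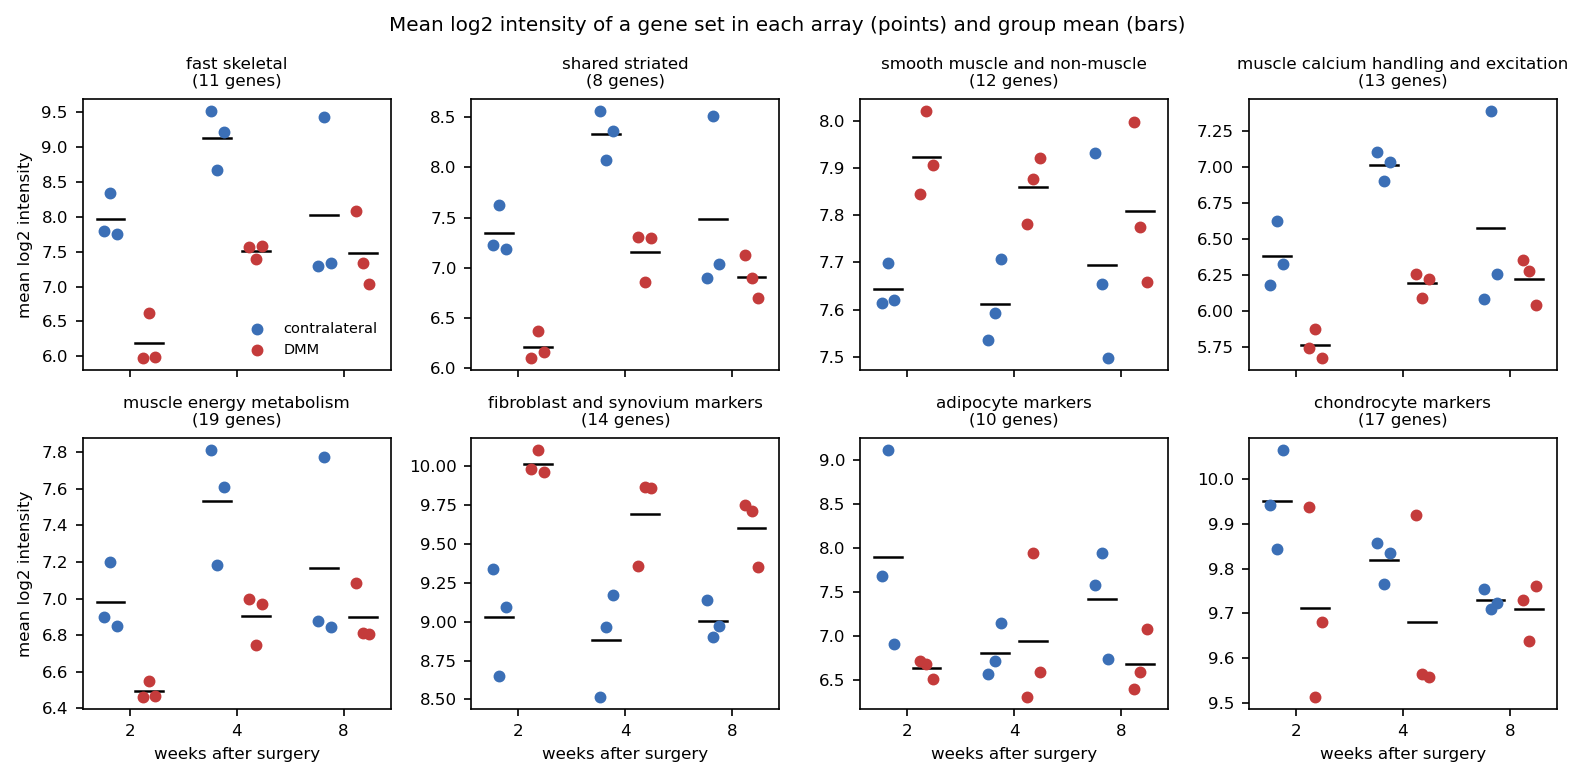
Mean log2 intensity over the measured genes of 8 sets on each of the 18 arrays (points), by week and knee, with bars at the mean of 3 arrays. Fast and shared striated sarcomere genes and calcium handling genes are lower in the DMM arrays at 2 and 4 weeks, fibroblast markers are higher, and adipocyte markers are lower at 2 weeks.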

How the data were processed

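RNA of medial tibial plateau cartilage was amplified in 2 rounds and hybridised to Illumina mouse bead arrays, and the authors selected probes and quantile-normalised all 18 arrays with lumi 2.8.0 in R 2.15.0, per the study's methods. The deposited values are log2 intensities of 22999 probes. Another 36 columns of unnormalised signals and detection p-values matched no array label and were not used, so whether a dim probe stood above background is not known here. Quantile normalisation forces a shared distribution on the arrays, and amplification may compress differences.

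The platform annotation gave 1 symbol for 18998 probes and several for 6, and 3995 were not listed. The 13 comparisons used limma 3.58.1 under R 4.3.3 with statmod 1.5.0: pairs of groups in their own 6 arrays, and the averaged effect and interactions in all 18. P-values were adjusted by Benjamini-Hochberg over all probes, at 0.05. Each gene was represented by its probe with the highest mean over 18 arrays, and other probes are given where their call differed. Values by array are given for the 6 largest falls and rises called at each week, both members of each paralog pair, and the brightest non-muscle member of each family; other genes were chosen after their values were seen. The members and lists were chosen with earlier results of these data known. Right and left knees came from shared mice, but the sources do not match the pools, so arrays were treated as unpaired, and replicate numbers did not deviate together. P-values measure the spread between pools of 8 mice. Only the fits of DMM-operated against contralateral arrays at each week were tested on simulated data with known changes.

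Alternatives were a fit of all arrays, intensity trend with robust variances, array weights, cyclic loess, quantile normalisation of the arrays compared, brighter probes only, averaging the probes within each gene, the replicate number as a block, and leaving out each array. Motifs were matched on both strands in RefSeq promoters of GRCm38.p6. Python 3.11.15 and matplotlib 3.10.9 made the figures.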

Additional observations from a re-analysis of the deposited data

Results flagged for a closer look

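*Tnnt1*, the slow tropomyosin-binding troponin subunit, differed in opposite directions at 4 and 8 weeks. All DMM arrays lay above all contralateral arrays at 4 weeks (0.69 on the log2 scale) and below them at 8 weeks (-0.83), where it was at 5.38, 5.81 and 4.89 against 5.83, 6.14 and 6.59. Neither difference passed the test in its week (adjusted p = 0.213 and 0.484). The interaction of surgery and week was -1.52 for 8 minus 4 weeks, with adjusted p = 0.448 by limma over all probes.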

How the results depend on the processing

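No value changed direction while called. Shares of all probes called are not given for the refits below, so their counts show only how the calls depend on the fit. When all 18 arrays shared a variance estimate, the number of sarcomere probes called went to 13 from 28 at 2 weeks, 3 from 29 at 4 weeks, 0 from 14 for contralateral cartilage at 4 against 2 weeks, 2 from 0 at 8 against 4 weeks, and 1 from 17 for DMM-operated cartilage at 4 against 2 weeks. That fit includes the 8-week contralateral arrays; the cause of each drop was not tested. With brighter probes only, 17 were called at 4 weeks and 6 instead of 2 for DMM-operated cartilage at 8 against 2 weeks; the trend with robust variances gave 4 there and 11 at 4 against 2 weeks. With the mean of all probes, *Mybpc2* against *Mybpc1* was -0.90 and passed (adjusted p = 0.0253).

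Leaving out each array gave 16 to 28 probes at 2 weeks (16 without DMM array 3), 20 to 29 at 4 weeks, 0 to 0 at 8 weeks and 32 to 41, from 37, for the averaged effect. Interactions gave 0 to 0, 0 to 0 and, for 8 minus 4 weeks, 0 to 3, with *Actc1*, *Actn3* and *Mylpf* called without contralateral array 2 of week 8 and *Actc1* without contralateral array 2 of week 4. Contralateral cartilage gave 0 to 24 for 4 against 2 weeks, 0 to 0 for 8 against 2 and 0 to 15 for 8 against 4, and DMM-operated cartilage gave 11 to 20, 0 to 8 and 0 to 0. For 4 against 2 weeks in contralateral cartilage, 2 were called without array 1 or 3 of week 2 or array 3 of week 4. For 8 against 2 weeks in DMM-operated cartilage, 8 were called without DMM array 3 of week 8 and 1 without array 2. The paired paralogs ranged from -2.11 to -1.59 for *Myl1*, which passed each time, from -1.83 to -1.33 for *Tnnt3*, which did not pass without contralateral array 2 or DMM array 2 or 3 of week 8, from -1.18 to -0.73 for *Actn3*, which did not pass in 13 of 18, from -1.04 to -0.47 for *Mybpc2*, which passed without contralateral array 3 of week 8, and from -0.54 to -0.10 for *Myoz1*.

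Same-numbered replicates correlated at -0.10 to 0.13 in their deviations, so the numbers were not taken as pairing. With the replicate number as a block, 27, 31 and 0 probes were called at 2, 4 and 8 weeks, 39 for the averaged effect and 0 for each interaction. Of the genes called, 8 of 18 at 2 weeks kept their call in every alternative (*Mybpc1*, *Myh4*, *Myl1*, *Tcap*, *Tnnc2*, *Tnni2*, *Tnnt3* and *Ttn*), 1 of 16 at 4 weeks (*Actc1*) and 18 of 21 in the averaged effect. The call of *Actn1* at 2 weeks was kept in 3 of 13 alternatives and that of *Tpm4* in 10 of 14. Probes near the bottom of the scale limit what can be seen of the slow and cardiac genes.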
